A study of Zea mays with 24 samples.

Results

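Transcripts of 2 genes whose products handle RNA were followed here over all 24 arrays of a study of maize (Zea mays) primary roots in the cold. MZ00003507 (named BE130044 in the deposited table) is called an RNA binding protein (RBP) by the study, after its nearest match in Arabidopsis thaliana. MZ00014087 (TC249270) is called a putative small nuclear ribonucleoprotein polypeptide F (snRNP-F), after a rice protein. They are 2 of 43393 genes on the array, each with 1 spot. The study listed both as differentially expressed in Picker and RBP also in PR39B29, so that their cold response in these varieties is a description here, with no test.

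Root RNA was taken from 4 varieties, namely Picker and PR39B29, which the study rated as the more chilling tolerant, and Fergus and Codisco, which it rated as less tolerant. Seedlings in the dark had a cold regime (16 h at 12 °C and 8 h at 6 °C) or a control regime (16 h at 18 °C and a cooler period at 12 °C), and the sample labels give the cooler control period as 6 h and the age as 8 days, where the methods give 8 h and day 1. Of the 24 arrays, 12 (called direct here) carried cold and control RNA of the same variety, and 12 (called linking here) carried cold RNA of one variety with control RNA of its neighbour, in the order Fergus, Picker, PR39B29, Codisco and back to Fergus. Each of the 8 kinds of array had 3 replicates, which the methods describe as independent root samples. As markers of the tissue, the root-specific protein RCc3 had a value on 24 of 24 arrays and root cap protein 2 on 21, but ratios give no level with which to check the tissue further. Between 18268 and 43108 genes had a value on an array, and the SD of the log2 ratio over genes ranged from 0.54 to 2.60. The direct array of PR39B29 replicate 2 and the linking array of Picker cold and PR39B29 control replicate 2 were close to identical (Pearson r = 0.987 over 22672 genes, against 0.820 for the next of 276 pairs of arrays), so that one may carry the values of the other, and results that rest on them are given with and without them.

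RNA binding proteins attach to transcripts and take part in their splicing, transport, stability and translation, and in plants several families of them are known for their response to cold. Small nuclear ribonucleoproteins are complexes of a small nuclear RNA and proteins that build the spliceosome, the machinery that removes introns. Polypeptide F belongs to the Sm proteins, which form a ring around the small nuclear RNA. A change in abundance of such a transcript between regimes would be a cold response, whereas one between varieties in both regimes would be a difference of genotype, and a linking array holds the sum of both. The array probe sequences were not at hand, so whether they match every variety equally was not tested. Differences between varieties below are therefore differences of array signal.

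The study designed a real-time PCR assay for RBP. It reports a strong correlation between real-time PCR and its array values over the genes assayed. Followed by real-time PCR over later days after germination, RBP is described by the study as rising in PR39B29 and falling in Picker. For the other genes shared by these varieties it describes similar patterns. The primers for RBP are shown because they are the sequence at hand that identifies this transcript. Each has 20 bases, of which 10 are G or C.

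MZ00003507 forward: ttcggatcctgtcttccatc

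MZ00003507 reverse: actccacgaaagcatcaagg

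The deposited value is a log2 ratio of both dyes (the M-value), and its direction is likely rather than settled. The table defines it as Cy5 over Cy3 and by the labels Cy5 marked the cold RNA throughout, yet direct and linking arrays ran opposite ways, with a negative Spearman correlation over genes in 39 of 48 direct and linking pairs of the same replicate number (median −0.26) and a Pearson correlation under −0.3 in 22. Genes other than RBP and snRNP-F that had values on all 3 direct arrays of one variety and on none of the other bore on the linking arrays. Where PR39B29 alone had values, the deposited ratio of Picker cold and PR39B29 control was above 0 for 93.3% of 15 genes, and where Picker alone had values for 22.6% of 62. Where Codisco alone had values, the ratio of PR39B29 cold and Codisco control was above 0 for 73.7% of 304 genes, and that of Codisco cold and Fergus control for 3.85% of 26. The same shares for Fergus cold and Picker control were 64.7% of 17 genes with values in Picker alone and 31.8% of 66 in Fergus alone. The orientation of the direct arrays rests on the table and the dye labels. With it, the ribosomal products rpl16 and rpl2 (given below) were higher in cold RNA of Picker, where the study listed them as lower. MZ00017067, another ribosomal product, was higher in both. The M-value was therefore read as the second-named RNA of an array title over the first-named one, and linking values were turned, so that every value below is cold over control. If the ratios are instead taken the other way round, each "higher" below becomes "lower" and the sizes stay the same.

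The ratios of RBP between cold and control RNA of one variety lay near 0, on both sides of it. In Picker the log2 ratio of cold over control was 0.70, −0.16 and −0.11 in replicates 1 to 3, with a mean of 0.14 ± 0.48 (SD, n = 3). In PR39B29 it was 0.40, 0.71 and −0.09, with a mean of 0.34 ± 0.41 (SD, n = 3), and 0.15 without the near-identical array of replicate 2. Both varieties had values on either side of 0, and the mean was smaller than the SD. The study reported RBP as induced in Picker and repressed in PR39B29, at sizes that no direct value of these varieties reached. Its calls were thus not recovered, and the reason was not tested. Codisco gave −0.34 and 1.58 on 2 arrays, and Fergus −0.18 on 1 array. Over the 9 direct arrays with a value, RBP was higher in cold RNA on 4 and lower on 5. On the 3 arrays of Fergus and Codisco, which the study did not use to choose the gene, the mean was 0.35 ± 1.06 (SD), and the exact two-sided sign-flip permutation test gave p = 1 (adjusted over the 2 genes p = 1), where 3 values cannot go below 0.25.

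The linking arrays of RBP lay far from 0 for Fergus with Picker and for PR39B29 with Codisco. Each of these pairs joins a tolerant and a less tolerant variety. Since Codisco with Fergus had no value, tolerance cannot be told apart from variety. Fergus cold RNA held less RBP than Picker control RNA, at −3.65, −5.62 and −5.38 on the log2 scale, with a mean of −4.88 ± 1.08 (SD, n = 3), or a 29.5-fold difference. PR39B29 cold RNA held more than Codisco control RNA, at 3.59, 3.21 and 5.21, with a mean of 4.00 ± 1.06 (SD, n = 3), or a 16.0-fold difference. All 6 values were on the same side for their pair and outside the range of the 9 direct values, −0.34 to 1.58. Picker cold RNA against PR39B29 control RNA, both of tolerant varieties, gave −0.09, −0.77 and −0.89, with a mean of −0.59 ± 0.43 (SD, n = 3), and −0.49 without the near-identical array.

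None of these linking ratios passed the adjusted threshold of 0.05. For Fergus cold over Picker control, limma's one-sample moderated test gave a standard error of 0.60 and adjusted p = 0.149 (95% interval −6.34 to −3.42). RBP ranked 5th by p and 15th by size of 4587 genes tested in that comparison, in which 0% were called by limma and 839 had an unadjusted p under 0.05. For PR39B29 cold over Codisco control limma gave adjusted p = 0.201 (95% interval 2.00 to 6.01). RBP ranked 24th by p of 4111 genes there, with 0% called by limma and 582 under an unadjusted p of 0.05. Picker cold over PR39B29 control gave adjusted p = 0.677 from limma (95% interval −1.80 to 0.63), with 0% called of 3433 genes. In one limma fit of all 24 arrays, which shares the spread between the kinds of array, Fergus cold over Picker control had adjusted p = 0.00029, with 0.959% of genes called, and PR39B29 cold over Codisco control adjusted p = 0.00128, with 18.3% called. Without replicate 3, Fergus cold over Picker control was at −4.63 with adjusted p = 0.000198 from limma on 2 arrays, where 1.15% of 6786 genes were called. Without replicate 1 or 2 the adjusted p was 0.0824 or 0.956, and 0% of genes were called. Whether the averages from which the study chose its genes also took these linking arrays is not given in the sources used here, so that the p-values of linking arrays with Picker or PR39B29 RNA are not independent of the choice.

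**Figure D1:**
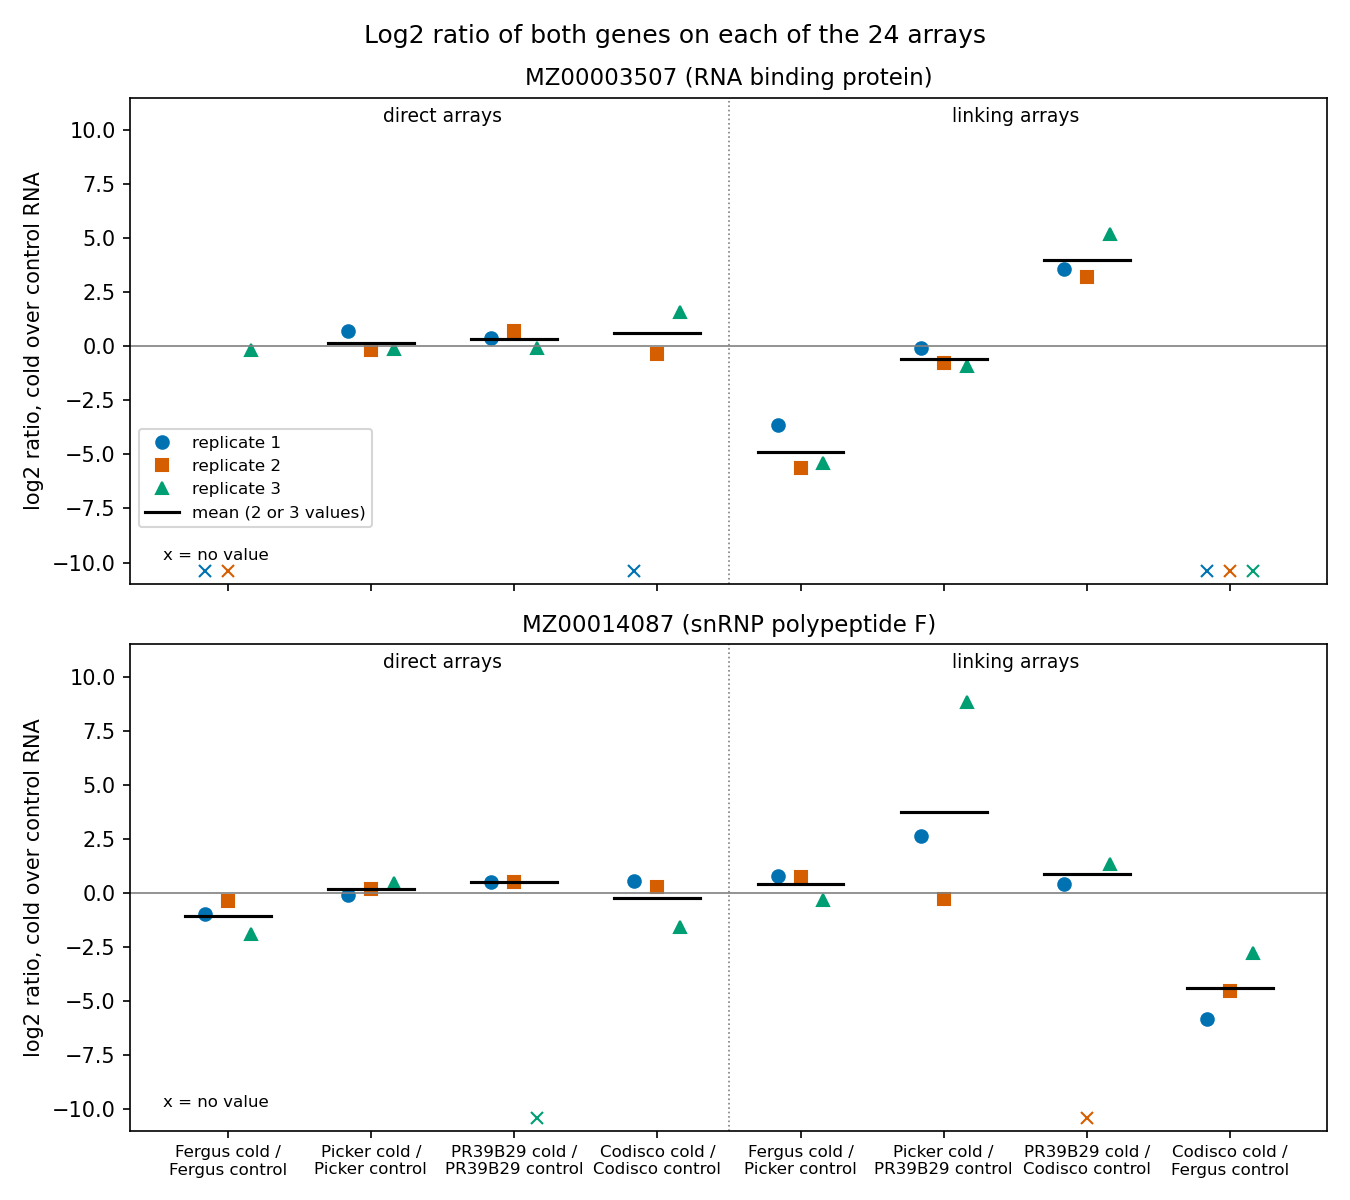
Log2 ratio of cold over control RNA (vertical axis) of MZ00003507 (top) and MZ00014087 (bottom) on the 4 kinds of direct array and the 4 kinds of linking array (horizontal axis). Symbols are the 3 replicates, lines are means of 2 or 3 values, and crosses at the bottom mark arrays with no value. RBP lies between −0.34 and 1.58 on direct arrays and reaches −5.62 and 5.21 on linking arrays.

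A direct and a linking array that share one RNA give the difference between neighbouring varieties in the other RNA. The values below subtract arrays of the same replicate number as a description, which the tests do not do. The cold and control differences of a pair subtract the same linking arrays, so that one regime is no independent repeat of the other. Under the cold regime, RBP was higher in Picker than in Fergus by 4.35, 5.46 and 5.27 in replicates 1 to 3, with a mean of 5.03 ± 0.59 (SD, n = 3), or 32.6-fold. Under the control regime, the difference between Picker and Fergus was 4.71, resting on the single direct value of Fergus. PR39B29 was above Picker by 0.49, 1.48 and 0.80 under the cold regime (mean 0.92 ± 0.51, SD, n = 3) and by 0.79, 0.61 and 0.78 under the control regime (mean 0.73 ± 0.10), and by 0.64 in both without the near-identical arrays. The SD depends on this matching. From the separate spreads of both kinds of array it was 1.18 for Picker over Fergus in the cold, 0.59 and 0.65 for PR39B29 over Picker in the cold and the control, and 1.72 and 1.14 for Codisco over PR39B29. Codisco was below PR39B29 under both regimes. Its cold difference was −3.55 and −3.63 in replicates 2 and 3, and over all arrays with a value −3.38. Its control difference was −3.20, −2.49 and −5.30, with a mean of −3.66 ± 1.46 (SD, n = 3), or 12.7-fold.

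Of these differences, the cold one of Codisco over PR39B29 was tested, since it needs no direct array of Picker or PR39B29. In limma over the 24 arrays it had a standard error of 0.88 and adjusted p = 0.223 (95% interval −5.27 to −1.49). It ranked 56th by p of 7448 genes, of which 0.0537% were called. It does need the linking arrays with PR39B29 cold RNA, and the model takes arrays that may hold the same RNA extract as independent.

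Arrays without a value for RBP were those of Fergus and Codisco. RBP had a value on 9 of 9 arrays on which both RNAs came from Picker or PR39B29, and on 3 of 9 on which both came from Fergus or Codisco, where genes on average had 4.74 and 5.63 values. The 3 arrays with a value among those 9 were also the 3 with the most genes measured, at 43108, 36768 and 32392. The part of array coverage in this was not tested. Of 43393 genes, 10 had values on all 9 arrays of the first kind and on 3 or fewer of the second. All 3 linking arrays of Codisco cold and Fergus control lacked a value, so that RBP was not compared between these varieties.

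Joined around the loop with Picker control RNA set at 0, the mean log2 level of RBP was 1.07 in PR39B29 cold, 0.73 in PR39B29 control, 0.14 in Picker cold, −2.32 in Codisco cold, −2.94 in Codisco control, −4.88 in Fergus cold and −4.71 in Fergus control RNA. Cold and control RNA of Picker, PR39B29 and Codisco differed by less than the SD of their direct arrays, and Fergus had 1 value. The linking ratios that separate Picker from Fergus and PR39B29 from Codisco exceeded their SD, while no array set Codisco against Fergus for RBP.

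snRNP-F also showed small ratios within most varieties. Cold over control was −0.97, −0.37 and −1.92 in Fergus, with a mean of −1.09 ± 0.78 (SD, n = 3), and all 3 values were below 0. In Picker it was −0.12, 0.20 and 0.46, with a mean of 0.18 ± 0.29 (SD, n = 3). The study listed snRNP-F with lower expression in the cold in Picker, at a size that none of these values reached. PR39B29 gave 0.48 and 0.51 on 2 arrays, and Codisco 0.56, 0.29 and −1.58, with a mean of −0.25 ± 1.17 (SD, n = 3). The low value of Codisco came from replicate 3, the array with the most genes measured. Without it the mean was 0.42.

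The cold response of snRNP-F in Fergus had adjusted p = 0.222 from limma (standard error 0.54, 95% interval −2.35 to 0.18), among 4706 genes of which 4.06% were called. In Codisco adjusted p was 0.818 from limma (95% interval −2.06 to 1.57), with 0% called of 4610 genes and 573 under an unadjusted p of 0.05. Over the 6 direct arrays of both varieties the mean was −0.67 ± 1.00 (SD), lower in cold RNA on 4 and higher on 2, with p = 0.188 in the exact two-sided sign-flip permutation test and 0.375 after adjustment over the 2 genes. In Picker 0.297% of 4377 genes were called by limma and in PR39B29 0% of 3695 (1018 under an unadjusted p of 0.05), and nothing is read from these since the study chose its genes there.

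The linking arrays of snRNP-F were far from 0 for another pair of varieties than those of RBP. Codisco cold RNA held less than Fergus control RNA, at −5.84, −4.56 and −2.76, with a mean of −4.39 ± 1.55 (SD, n = 3), or a 20.9-fold difference. All 3 values lay below the lowest of the 11 direct values, −1.92. This linking pair holds no RNA of the varieties in which the study chose the gene. In limma it had a standard error of 0.66 and adjusted p = 0.232 (95% interval −5.93 to −2.85). It had the smallest p of 3256 genes tested and the 8th largest size, and 0% of them were called by limma, with 356 under an unadjusted p of 0.05. The one fit of 24 arrays gave adjusted p = 0.046 with 0.645% of genes called. On any 2 of the 3 arrays limma gave adjusted p between 5.17e-06 and 0.0213, with means from −5.20 to −3.66. Without replicates 1, 2 and 3 it called 65 of 4332 genes (1.5%), 80 of 3942 (2.03%) and 42 of 5121 (0.82%).

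Picker cold over PR39B29 control was 2.64, −0.30 and 8.84 for snRNP-F, with a mean of 3.73 ± 4.67 (SD, n = 3), and the SD was larger than the mean. limma gave adjusted p = 0.619 (95% interval 0.32 to 7.13), with 0% called of 3433 genes and 265 under an unadjusted p of 0.05. The value of −0.30 came from replicate 2, whose array was nearly identical to the direct array of PR39B29 replicate 2. Without the near-identical arrays the mean was 5.74 (adjusted p = 0.396 from limma), and without replicate 3, which holds the value of 8.84, it was 1.17 (adjusted p = 0.966 from limma). Fergus cold over Picker control was 0.78, 0.73 and −0.34, with a mean of 0.39 ± 0.63 (SD, n = 3, adjusted p = 0.659 from limma, 95% interval −0.89 to 1.67). PR39B29 cold over Codisco control was 0.39 and 1.32 on 2 arrays.

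**Figure D2:**
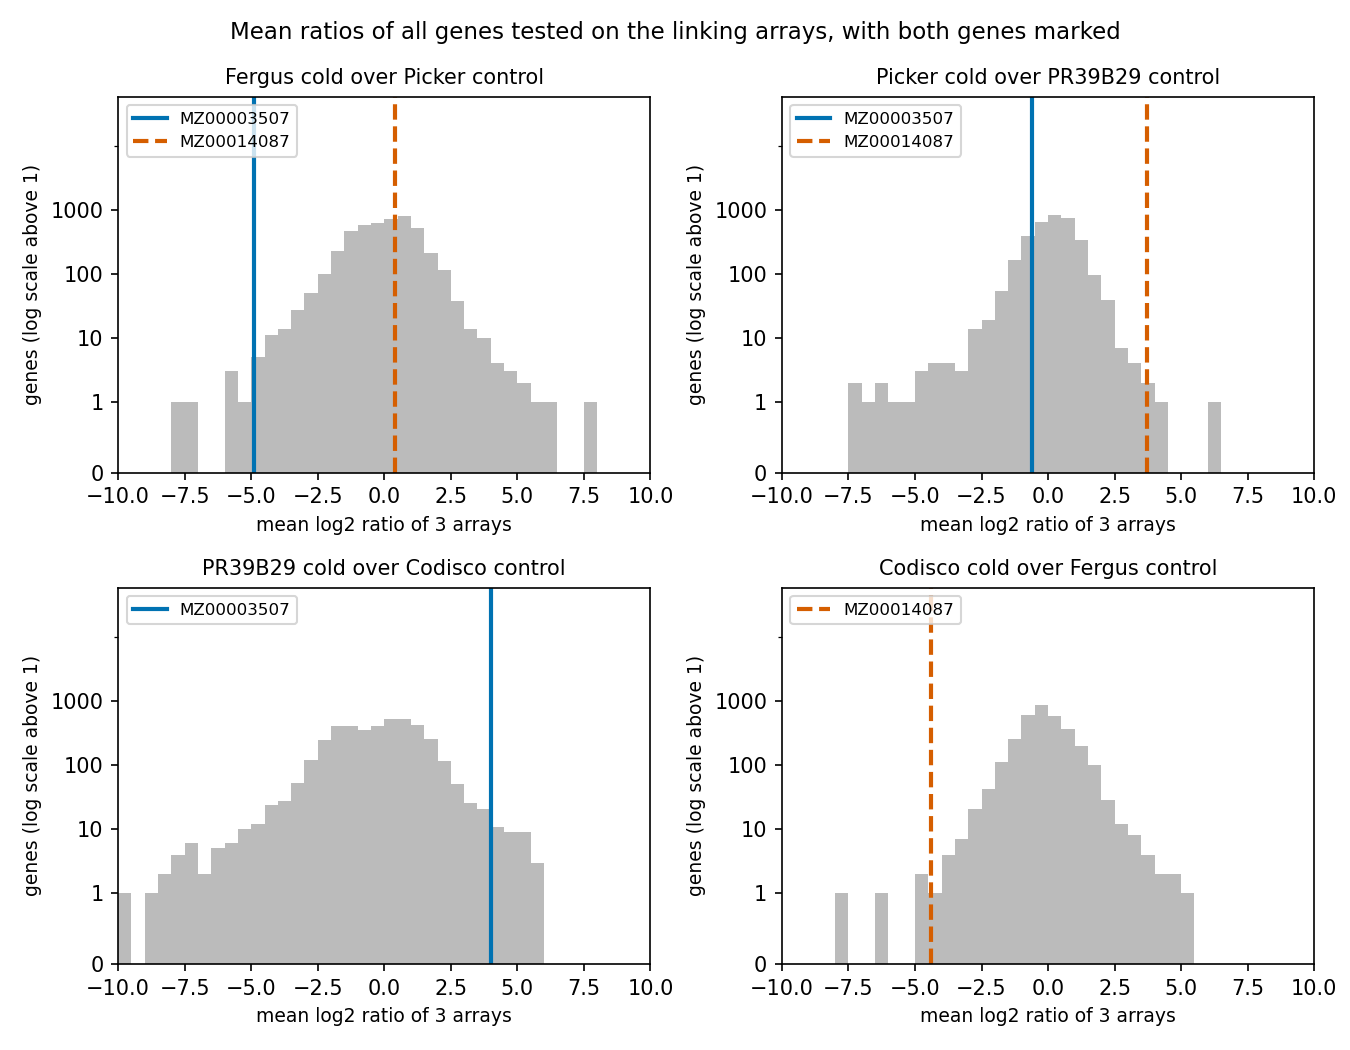
Number of genes (vertical axis, log scale above 1) by mean log2 ratio of cold over control RNA on 3 linking arrays (horizontal axis, bins of 0.5), for each linking pair. Vertical lines mark the means of MZ00003507 and MZ00014087 where they had 3 values. RBP stands in a tail for Fergus cold over Picker control (−4.88) and PR39B29 cold over Codisco control (4.00), and snRNP-F for Picker cold over PR39B29 control (3.73) and Codisco cold over Fergus control (−4.39).

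Between neighbouring varieties, snRNP-F was higher in Fergus than in Codisco under both regimes. Under the cold regime the difference was 4.87, 4.20 and 0.84, with a mean of 3.30 ± 2.16 (SD, n = 3), or 9.87-fold. Under the control regime it was 6.40, 4.85 and 1.18, with a mean of 4.14 ± 2.68 (SD, n = 3), or 17.7-fold. All 6 values were above 0, with those of replicate 3 the lowest. They rest on the same 3 linking arrays, so that the regimes are not independent of each other. Without matching by number the SD was 1.73 in the cold and 1.94 in the control. In limma the cold difference had adjusted p = 0.982 (95% interval 0.31 to 6.30), and the control difference adjusted p = 0.325 (95% interval 1.13 to 7.16). Of the genes tested, 0% of 4578 and 0% of 4697 were called by limma, with 168 and 552 under an unadjusted p of 0.05.

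PR39B29 over Picker was −2.16 and 0.81 under the cold regime and −2.76, 0.50 and −8.38 under the control regime (mean −3.55 ± 4.49, SD, n = 3) for snRNP-F. Both had values on either side of 0, and those above 0 came from the replicate with near-identical arrays. Without these arrays the differences between means, not matched by number, were −5.26 in the cold and −5.56 in the control. Both take the linking value of 8.84 from replicate 3. The cold one rests on 1 direct array of PR39B29 (0.48, replicate 1), whose matched difference was −2.16. Without replicate 3 the differences were −0.68 in the cold and −1.13 in the control. Picker over Fergus was −0.90, −0.53 and 0.80 under the cold regime (mean −0.21 ± 0.89, SD, n = 3) and −1.75, −1.09 and −1.58 under the control regime (mean −1.48 ± 0.34, and an SD of 1.01 without matching by number). The control difference had adjusted p = 1 in limma (95% interval −4.52 to 1.57), where 0.0167% of 5989 genes were called. Codisco over PR39B29 was 0.17 and −2.90 in the cold, with adjusted p = 0.834 from limma over all arrays with a value (mean −1.10, 95% interval −4.64 to 2.43).

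**Figure D3:**
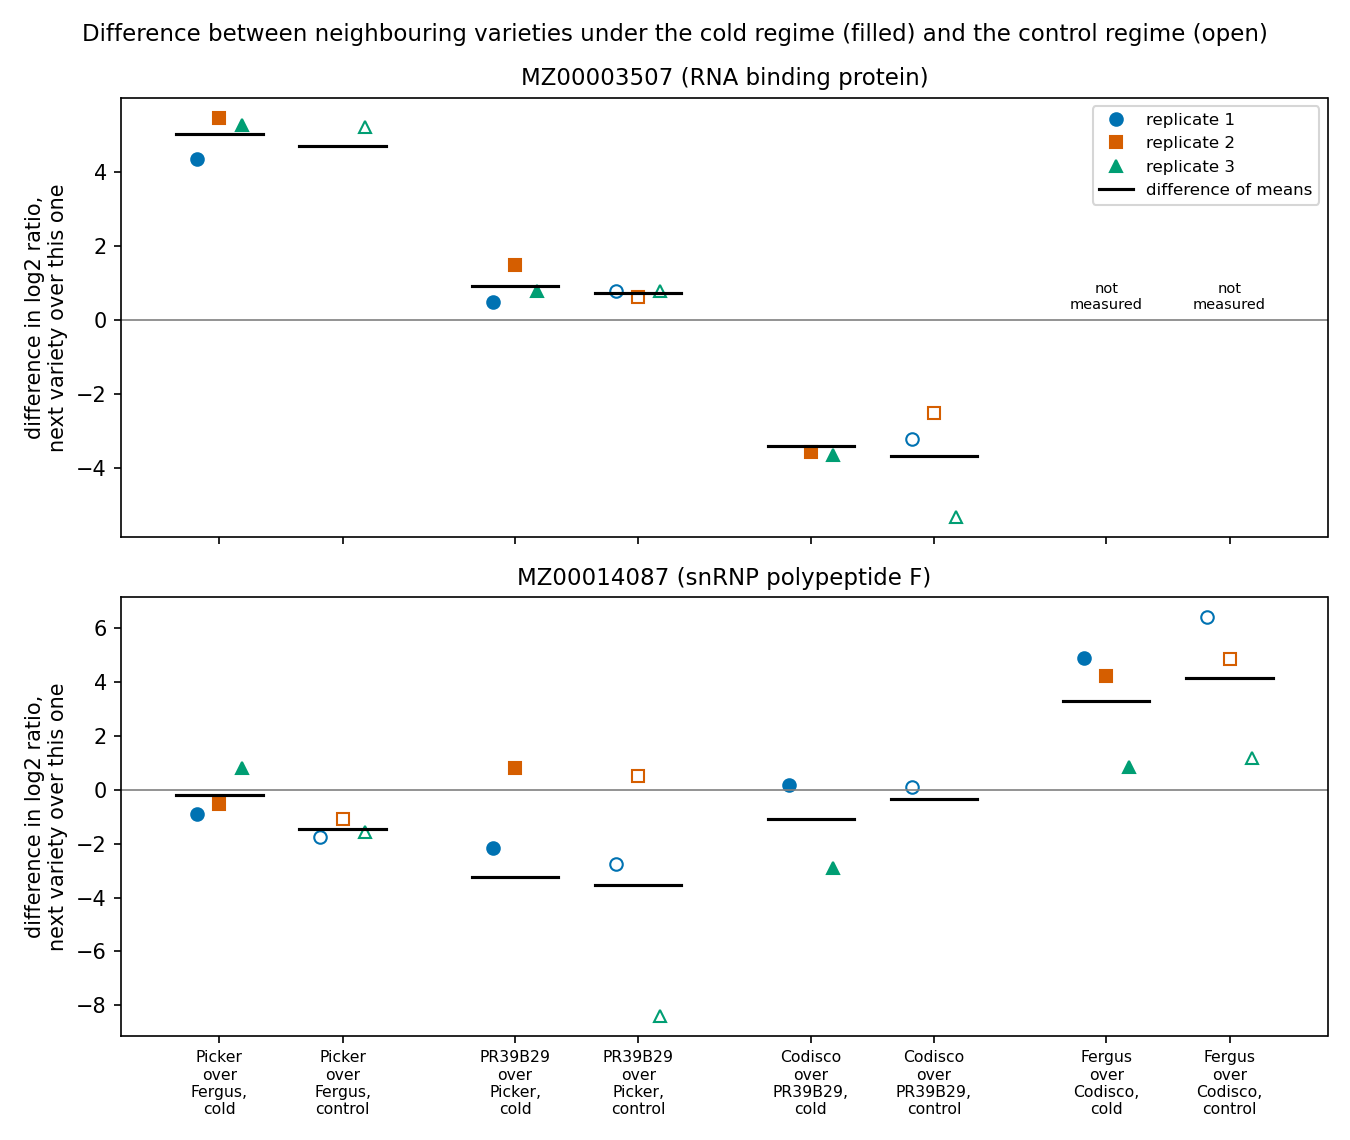
Difference in log2 ratio between neighbouring varieties, next variety over this one (vertical axis), for cold RNA (filled symbols) and control RNA (open symbols) of each pair (horizontal axis). Symbols are replicates with both values, and lines are differences of the means over all arrays with a value. RBP is higher in Picker than in Fergus (5.03 in the cold) and lower in Codisco than in PR39B29 (−3.38 in the cold), and snRNP-F is higher in Fergus than in Codisco (3.30 in the cold).

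Joined around the loop with Picker control RNA at 0, the mean log2 level of snRNP-F was 0.39 in Fergus cold and 1.48 in Fergus control, 0.18 in Picker cold, −3.05 in PR39B29 cold and −3.55 in PR39B29 control, and −4.16 in Codisco cold and −3.91 in Codisco control RNA. The step between Picker and PR39B29 was smaller than the SD of the linking arrays that measured it. Cold and control RNA differed by less than the SD of the direct arrays in Picker and Codisco, and by more in Fergus and on the 2 arrays of PR39B29. The 8 means did not close on themselves, since the sums of the direct and the linking means were −0.66 and 0.59, and the gap of −1.25 is an error within the levels given. snRNP-F had a value on 9 of 9 arrays of Fergus and Picker RNA and on 7 of 9 of PR39B29 and Codisco RNA.

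The mean levels put the varieties in different orders for the 2 genes. RBP stood highest in PR39B29 and Picker, both rated tolerant, and snRNP-F in Fergus and Picker, of which Picker is rated tolerant. With these varieties, tolerance cannot be told apart from other differences between them. Over the 16 arrays on which both had a value, their Spearman rho was −0.01 and Pearson's r −0.03. Both lay among the most variable genes, at the top 10.2% (RBP) and 10.1% (snRNP-F) by variance over the 24 arrays.

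The probes most like RBP over the arrays, by Spearman's rho of cold over control among 17938 probes with enough shared arrays, were MZ00025405 (rho 0.95, 15 arrays), MZ00019462 (0.94, 18 arrays), MZ00023704 (0.89, 16 arrays), MZ00003970 (0.88, 18 arrays) and MZ00042744 (0.87, 16 arrays). In Fergus cold over Picker control, MZ00019462 and MZ00003970 were at −2.40 and −3.58 in mean. MZ00025405, MZ00023704 and MZ00042744 were nearer 0 there, at −0.67, −0.70 and −0.48. In PR39B29 cold over Codisco control, the first named were at 2.31 and 1.89, and the latter at 1.31, 1.01 and 0.99. Unlike RBP, MZ00019462 and MZ00003970 had large direct means, at 4.08 in Codisco and −2.37 in Fergus. Those most like snRNP-F among 17842 probes were MZ00024659 (rho 0.86), MZ00017103 (0.86), MZ00030020 (0.82), MZ00013552 (0.81) and MZ00003748 (0.80), over 19 to 22 arrays. MZ00024659 was at −1.87 in Codisco cold over Fergus control, and the others most like snRNP-F lay between −1.67 and −0.60. The arrays share RNAs and replicate loops, and these ranks are a description. All these probes were picked over the same linking arrays, so that their direction there is no separate result.

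Ribosomal proteins were followed as other products of RNA metabolism, over 26 probes. Of these, 25 carry an rpl or rps symbol, taken here as plastid or mitochondrial ribosomal proteins, so that the list says little of cytosolic ribosomes. The study had chosen 3 of them on these samples. Between 5 and 9 of the probes were tested in each direct or linking comparison. In limma 1 was called, rpl14 (an organelle protein of the large ribosomal subunit). It was higher in cold than in control RNA of Picker by 3.15 (adjusted p = 0.049), where 0.297% of genes were called. That call was lost with no variance filter, with 2 or 3 values, in the fits of 24 arrays and without replicate 2 or 3. No other was called in any of the 8 comparisons. The median ratio of the list members with 3 values was above 0 in all 8, from 0.19 in Codisco cold over Fergus control to 1.81 in Picker, where the medians over all genes lay between −0.03 and 0.02, and it stayed above 0 after arrays were centred and scaled (0.09 to 1.77). The ribosomal product MZ00017067 (a 40S subunit match from rice) was at −7.82 in mean for Fergus cold over Picker control and 3.57 for Codisco cold over Fergus control, with adjusted p = 0.179 and 0.252 from limma, and at 0.49, 0.70 and 0.53 within Picker, PR39B29 and Codisco.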

How the data were processed

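The authors read the slides with a GenePix scanner, replaced intensities that background subtraction left at or under 0, normalised within arrays by print-tip loess and between arrays by scaling, and deposited the log2 ratio of each spot. Bad spots have no value (41.8% of gene spots). The deposited M-values ranged from −41.5 to 82.9. Fold differences restate the log2 ratios, whose channel intensities were not at hand. Spot names came from a second deposited table, whose 96 columns of single slides match no label and were not used, so that signal over background is unknown. Its spot positions (other values) served to join the tables. Here repeated spots were averaged per probe, and a filter left the most variable 40% (16945 of 42364 genes). Ratios were tested with limma (version 3.58.1, under R 4.3.3), with Benjamini and Hochberg adjustment and a threshold of 0.05. One-sample tests took genes with 3 values, and variety differences a fit of the 24 arrays with 8 means and 2 or more values of each kind. Probes named beside the members were the 5 with the highest Spearman rho among those with a value on 0.8 or more of the member's arrays, and a list of ribosomal products. The genes, lists and direction of the ratio were chosen with earlier results of these data known. Intervals cover the spread between arrays, whose number limits the precision.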

Additional observations from a re-analysis of the deposited data

Results flagged for a closer look

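The cold response of snRNP-F (MZ00014087) went opposite ways in 2 varieties. All 3 direct arrays of Fergus were below 0 (mean −1.09 ± 0.78, SD), and both arrays of PR39B29 with a value were above 0 (0.48 and 0.51), a difference between the means of −1.58. This difference was not tested. The value of 0.51 came from the array of PR39B29 that was nearly identical to a linking array, and without it 0.48 remained.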

How the results depend on the processing

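The direction of the ratio is the main limit. Read in title order, first-named over second-named RNA, every sign turned. Cold responses of RBP were then −0.14 in Picker, −0.34 in PR39B29 and −0.62 in Codisco, and those of snRNP-F 1.09 in Fergus, −0.18 in Picker, −0.49 in PR39B29 and 0.25 in Codisco. The linking ratios became 4.88 (Fergus cold over Picker control), 0.59 (Picker cold over PR39B29 control) and −4.00 (PR39B29 cold over Codisco control) for RBP, and −0.39, −3.73, −0.86 and 4.39 (Codisco cold over Fergus control) for snRNP-F. The dye labels read literally gave the same linking values. In title order the cold differences of RBP were −5.03 (Picker over Fergus), −0.92 (PR39B29 over Picker) and 3.38 (Codisco over PR39B29), and its control differences −0.73 (PR39B29 over Picker) and 3.66 (Codisco over PR39B29). Those of snRNP-F were 0.21, 3.23, 1.10 and −3.30 (Fergus over Codisco) in the cold, and 1.48, 3.55, 0.36 and −4.14 in the control. By the dye labels the cold differences of RBP were −4.74, −0.25 and 4.62 (adjusted p = 0.0048 from limma for the last) and its control differences −0.44 and 4.34. Those of snRNP-F were 0.57, 4.22, 0.61 and −5.47 (adjusted p = 0.0253) in the cold, and 3.91 (PR39B29 over Picker), 1.35 (Codisco over PR39B29) and −4.63 (Fergus over Codisco, adjusted p = 0.0436) in the control. This reading takes direct and linking arrays to run the same way. Under it limma called 1839 of 7448 genes for the cold difference of Codisco over PR39B29. For Fergus over Codisco it called 528 of 4578 genes in the cold and 604 of 4697 in the control. The calls of RBP and snRNP-F by the dye labels were thus shared with many other genes.

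Linking ratios passed the adjusted threshold in limma where the spread was estimated otherwise, and the cause was not tested. One fit of 24 arrays gave adjusted p = 0.00029 and 0.00128 for RBP (−4.88 in Fergus cold over Picker control, 4.00 in PR39B29 cold over Codisco control) and 0.046 for snRNP-F (−4.39 in Codisco cold over Fergus control). The same fit with the replicate number as a block gave 0.000404, 0.000761 and 0.0457 at −4.88, 4.00 and −4.39, and the block changed no other call. Of all genes tested in these comparisons, the blocked fit called 2.66%, 26.7% and 0.921%. Deviations of arrays with the same number correlated at −0.32 to 0.66 (median 0.13, against −0.07 for different numbers), so that no test pairs arrays by number. The term for position in the title gave −4.54 for snRNP-F in Codisco cold over Fergus control (adjusted p = 0.0235), and it could not be fitted for RBP, which lacks one kind of array. Centring and scaling gave −5.94 there (adjusted p = 0.000164), 5.94 for its control difference of Fergus over Codisco (adjusted p = 0.033), 0.62 for its cold response in PR39B29 and 0.0018 in Codisco. For Codisco cold over Fergus control, the term for position called 1.12% of genes, and centring and scaling 3.13%. Centring and scaling called 0.498% for the control difference of Fergus over Codisco.

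Leaving out 1 replicate gave −5.50 to −4.52 for RBP in Fergus cold over Picker control and −5.20 to −3.66 for snRNP-F in Codisco cold over Fergus control. It gave −0.65 to 0.42 for the cold response of snRNP-F in Codisco, and −1.37 to 0.0282 for its cold difference of Codisco over PR39B29, above 0 without replicate 3. No variance filter, 2 or 3 values and leaving out the near-identical arrays changed no call or direction of the tested ratios of RBP and snRNP-F.

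The number of genes called moved widely. It was 191 for the cold response in Fergus (0 to 423 over the settings), 13 in Picker (0 to 1514) and 0 in PR39B29 and Codisco (up to 2625 and 1178). For the linking pairs it was 0 (up to 310, 0, 1217 and 126 in loop order), and for tested differences 1, 0, 4 and 0 (up to 1123, 604, 1839 and 528, each by the dye labels). Of the 5 probes most like RBP, 3 were shared with Pearson's r and 0 with the direct arrays alone, and 0 and 0 for snRNP-F. Each kind of array had at most 3 values.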
